A study of Mus musculus with 51 samples.

Results

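The 8 genes described here encode the enzymes that write, copy and remove DNA methylation: the methyltransferases Dnmt1, Dnmt3a and Dnmt3b, the cofactor Dnmt3l, the hemimethylated DNA reader Uhrf1, and the dioxygenases Tet1, Tet2 and Tet3. They were chosen by name, by a rule that uses no measured value, and are 8 of the 20807 autosomal genes with a protein-coding transcript in the annotation. In the deposited allelic tables, 1 of these gene names was carried by 60 of 150793 peaks, and a further 18 peaks overlapped a member but were named for a neighbour. The annotation gave the 8 genes 21 start sites of 27719, where transcripts that begin within 1000 bp of each other count as 1 site, and 531 of the 2462755 windows of 1 kb lay over their bodies.

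Cytosine methylation is laid down de novo by Dnmt3a and Dnmt3b, is copied after replication by Dnmt1 together with Uhrf1, and is oxidised by the Tet proteins, which opens a route to its removal. Dnmt3l has no catalytic activity of its own and stimulates Dnmt3a and Dnmt3b. After implantation the epiblast regains methylation to a high level while the extra-embryonic ectoderm (ExE), the trophoblast lineage that contributes to the placenta, stays less methylated. Dnmt3a has a second promoter inside the gene, from which a shorter protein, Dnmt3a2, is made that lacks the N-terminal part of the long form.

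Epiblast and ExE were dissected apart at embryonic day 6.5 from 3 crosses, named with the mother first. B6/CAST and CAST/B6 embryos are the reciprocal wild-type hybrids of C57BL6/Babr and CAST/Ei mice. The matDKO/CAST embryos have a CAST father and a mother of mixed B6/129 background that was floxed for both Dnmt3a and Dnmt3b and carried Zp3-cre, a recombinase driven in the growing oocyte. These embryos therefore carry a deleted maternal copy and an intact paternal copy of each of the 2 genes (Dnmt3a -/+, Dnmt3b -/+) in addition to lacking the maternal DNA methylation, and absent maternal methylation, the heterozygous deletions and the 129 part of the maternal genome cannot be told apart in any comparison with the wild types. By the labels each library came from a pool of 4 epiblasts or 8 ExE, although the study's sample list gives another number for 2 of the ExE pools. Ultra-low-input native ChIP with micrococcal nuclease was done for H3K4me3, a mark of active start sites, H3K27me3, the Polycomb mark, and H3K36me3, a mark of transcribed gene bodies. There were 2 libraries for each mark, tissue and cross, 36 in all, and 15 inputs, 5 of them from matDKO/CAST. The strain label of 2 of these 5, epiblast replicate 3 and ExE replicate 2, leaves out 129, although their genotype label and the study's sample list place them with the other matDKO/CAST libraries. Depth was 4.01 to 17.9 M reads (M, 1000000) for H3K4me3, 3.68 to 22.9 M for H3K27me3, 2.09 to 12.6 M for H3K36me3 and 7.17 to 90.6 M for the inputs. Levels are given in RPKM, the read count scaled by window length and library size.

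As a check of the dissection, H3K36me3 over gene bodies was read at marker genes. The summed level of 10 ExE markers was 11.8 to 14.5 RPKM in the wild-type ExE libraries and 6.4 to 7.10 RPKM in the epiblast libraries, and that of 10 epiblast markers was 6.70 to 8.72 RPKM in ExE and 10.1 to 13.2 RPKM in epiblast. That of 10 visceral endoderm markers was also higher in ExE, at 10.8 to 15.9 RPKM against 5.02 to 6.02 RPKM. Genes were tested from a mean of 0.5 RPKM, and 7 of the ExE markers and 4 of the visceral endoderm markers reached it through ExE alone and Otx2 through epiblast alone, so they are left out of the counts. Of the remaining markers, 1 of 3 for ExE (Ets2) and 4 of 5 for visceral endoderm (Afp, Apob, Cubn and Dab2) were called higher in ExE, and 6 of 9 for epiblast were called lower and 1, Dnd1, higher, where 67.6% of all genes were called higher and 4.06% lower, genes that passed through 1 tissue included. After each library was shifted to the same median, the calls of Ets2, of the 4 visceral endoderm markers and of the 6 epiblast markers held, and the ExE marker Fgfr2 was called lower in ExE. None of these markers was at 0 in every library of a tissue. The part of such cells in the tissue differences below was not tested, and in tissue pools a change in cell number and a change per cell cannot be told apart.

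The sequences upstream of 4 start sites are shown because the results below turn on them: the long and the internal promoter of Dnmt3a, the Dnmt3l start with higher H3K4me3 in ExE and the Tet2 start marked by H3K27me3. They are the bases in front of RefSeq start sites in GRCm38.p6, given in the direction of transcription and ending before the gene's own exon, with each CpG in capitals.
Dnmt3a, internal start of the short form, chr12:3891494-3891727, plus strand: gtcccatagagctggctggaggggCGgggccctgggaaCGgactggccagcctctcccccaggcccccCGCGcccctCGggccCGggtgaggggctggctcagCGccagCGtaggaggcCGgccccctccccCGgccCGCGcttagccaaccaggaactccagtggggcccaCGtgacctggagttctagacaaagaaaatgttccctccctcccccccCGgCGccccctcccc
Dnmt3a, start of the long form, chr12:3806730-3806979, plus strand: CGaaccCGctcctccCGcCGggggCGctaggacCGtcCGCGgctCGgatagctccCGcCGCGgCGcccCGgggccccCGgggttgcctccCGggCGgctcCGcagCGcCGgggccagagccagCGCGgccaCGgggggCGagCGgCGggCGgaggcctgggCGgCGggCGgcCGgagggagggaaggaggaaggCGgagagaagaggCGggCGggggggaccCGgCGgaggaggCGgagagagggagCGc
Dnmt3l, start site 2, chr10:78049592-78049841, plus strand: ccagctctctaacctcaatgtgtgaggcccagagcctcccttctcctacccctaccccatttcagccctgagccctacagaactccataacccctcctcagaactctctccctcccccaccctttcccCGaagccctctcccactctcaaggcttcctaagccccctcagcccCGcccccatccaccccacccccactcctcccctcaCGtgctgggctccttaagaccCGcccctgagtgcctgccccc
Tet2, chr3:133544391-133544640, minus strand: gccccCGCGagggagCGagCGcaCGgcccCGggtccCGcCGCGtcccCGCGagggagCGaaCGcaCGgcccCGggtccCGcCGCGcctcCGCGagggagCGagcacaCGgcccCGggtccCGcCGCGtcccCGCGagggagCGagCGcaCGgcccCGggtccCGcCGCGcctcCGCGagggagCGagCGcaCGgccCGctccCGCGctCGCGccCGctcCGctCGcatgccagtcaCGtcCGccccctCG
These 4 stretches differ widely in CpG. The 250 bases upstream of the Tet2 start held 51 CpGs, a number reached by 0.0701% of 31396 autosomal RefSeq promoters, whose median was 6. The long Dnmt3a promoter held 38, reached by 1.93%, the internal Dnmt3a promoter held 15, reached by 27.8%, and the Dnmt3l stretch held 4, reached by 62.7%.

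At the internal Dnmt3a promoter the allelic H3K4me3 reads were split unequally between the parents in matDKO/CAST and about equally in the wild types. The peak over the internal Dnmt3a promoter (chr12:3884500-3894500 in epiblast and chr12:3884500-3897000 in ExE, GRCm38) spans sites 3 and 4 of the 5 annotated start sites, and in ExE also site 5. In wild-type embryos both parental copies carried the mark about equally. The maternal share of allelic H3K4me3 reads in epiblast was 50% (162 maternal and 162 paternal reads) and 51.7% in B6/CAST, and 46.1% and 53.3% in CAST/B6. In wild-type ExE it was 47.5% and 51.5% in B6/CAST, and 54.2% and 50.3% in CAST/B6.

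In matDKO/CAST most reads of this peak came from the mother's copy, the copy of the gene that carries the deletion. Over all autosomal peaks the maternal reads outnumbered the paternal ones in each of the 12 matDKO/CAST libraries, for example 2178230 to 2025754 for H3K4me3 in epiblast replicate 1, so raw shares in this cross lie above 50% without any difference at a peak, and the test scales each allele by its own total. Epiblast replicate 1 had 272 maternal and 63 paternal reads (81.2%) and replicate 2 had 67 and 25 (72.8%). ExE replicate 2 had 103 maternal and 36 paternal reads (74.1%) and replicate 3 had 84 and 19 (81.6%). All 4 matDKO/CAST libraries lay above all 8 wild-type libraries. The interaction of cross and allele, matDKO/CAST against B6/CAST, was 1.75 on the log2 scale in epiblast (adjusted p = 0.00221) and 1.75 in ExE (adjusted p = 0.00197, edgeR quasi-likelihood test in both). With each library as a block the adjusted p-values fell to 6.99e-09 and 3.83e-09. Of the 14 informative member peaks for H3K4me3 in each tissue, 1 was called in each, this peak, where 0.674% of all informative peaks were called in epiblast and 0.892% in ExE.

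The difference was seen on both copies. Per 1000000 allelic reads in autosomal peaks of the same library, the maternal copy in epiblast had 23.2 to 41.8 reads over the 4 wild-type libraries and 64.7 and 59.8 in matDKO/CAST, and the paternal copy had 26.7 to 36.6 and then 15 and 22.3. In ExE the maternal values were 18.2 to 22.3 in wild type and 26.7 and 31.1 in matDKO/CAST, and the paternal values were 15.4 to 21.7 in wild type and 9.32 and 7.03 in matDKO/CAST. The ranges of the 2 genotypes did not overlap for either copy in either tissue. The difference in allelic share was not seen in the total signal: H3K4me3 around start site 4 was 26.1 and 22.7 RPKM in matDKO/CAST epiblast against 20.6 to 25.1 in wild type (log2 difference 0.07, SE 0.229, limma adjusted p = 0.977), and 11.7 and 15.3 RPKM in matDKO/CAST ExE against 8.44 to 14.7 (0.13, SE 0.229, adjusted p = 1.00).

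The call rested on few libraries. In epiblast it was lost without matDKO/CAST replicate 1 (adjusted p = 1.00, log2 1.26) and without replicate 2 (adjusted p = 0.0592, log2 2.01), and in ExE without B6/CAST replicate 1 (adjusted p = 0.255, log2 1.66) or replicate 2 (adjusted p = 0.104, log2 1.89). It was kept in both tissues with library totals, other count filters and DESeq2. No informative member peak of the other marks was called in this contrast, where 0.179% of epiblast and 0.742% of ExE peaks were for H3K27me3, and 0.163% and 0.363% for H3K36me3.

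**Figure D1:**
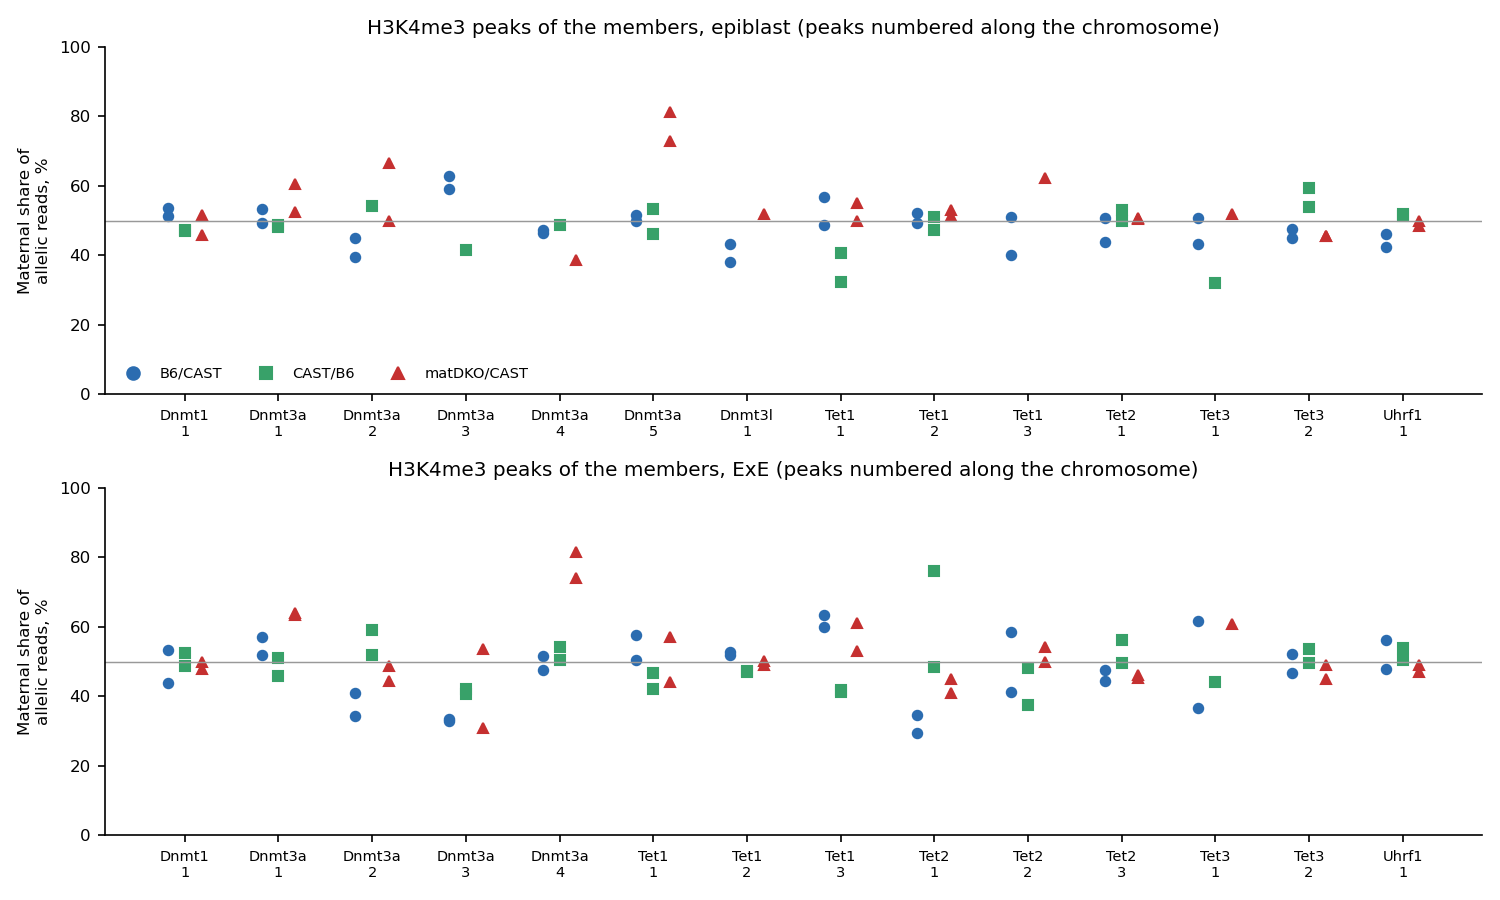
Maternal share of allelic H3K4me3 reads (percent) at the informative peaks named for the 8 genes, 1 point per library with at least 20 allelic reads, epiblast above and ExE below; circles are B6/CAST, squares CAST/B6 and triangles matDKO/CAST, and the line marks 50%. The triangles stand at 72.8 to 81.6% over the internal Dnmt3a promoter (Dnmt3a 5 in epiblast, Dnmt3a 4 in ExE), where all wild-type points lie between 46.1 and 54.2%.

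At the other Dnmt3a peaks the interaction did not pass the test. In ExE 2 of them, chr12:3870000-3879000 and chr12:3822500-3827000, had more paternal than maternal H3K4me3 reads in B6/CAST (-1.06, adjusted p = 0.00354, and -0.74, adjusted p = 0.0464, edgeR), without a call in CAST/B6. Over the long promoter the maternal share in matDKO/CAST ExE was 63.9% and 63.5%, above the 45.8 to 57.1% of the 4 wild-type libraries (interaction 0.49, adjusted p = 1.00 by edgeR, unadjusted p = 0.0681). In matDKO/CAST epiblast it was 52.5% and 60.4% (interaction 0.18, adjusted p = 1.00). Dnmt3b, the other gene deleted in the mothers, was the nearest gene of 1 peak, an H3K27me3 peak beyond its 3′ end with too few allelic reads to be informative. The peaks over Dnmt3b itself carried the name of a neighbour, 7530422B04Rik. Over its start, matDKO/CAST had 560 maternal and 446 paternal H3K4me3 reads in epiblast replicate 1, 132 and 116 in replicate 2, and 261 and 254 and then 222 and 203 in ExE (interaction 0.05 and 0.01, adjusted p = 1.00 for both by edgeR).

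Along Dnmt3a, H3K4me3 formed 2 high peaks, 1 at the long promoter and 1 at the internal one, with smaller peaks between them. Start site 4, which begins the short form, stood above the long promoter within each of the 4 wild-type epiblast libraries and below it within each of the 4 wild-type ExE libraries, although the ranges of the 2 sites overlapped in both tissues. Its level in the wild-type epiblast libraries was 24.1 and 20.6 RPKM in B6/CAST and 23.0 and 25.1 in CAST/B6. The ExE libraries, in the same order, had 14.7, 13.2, 8.44 and 13.6 RPKM. The tissues did not overlap, and the difference was -0.89 on the log2(RPKM + 0.5) scale, ExE minus epiblast (SE 0.187, limma adjusted p = 2.03e-05). At the long promoter the level was 16.8 to 23.7 RPKM in epiblast and 14.1 to 17.2 RPKM in ExE (-0.40, adjusted p = 0.128), with overlapping groups.

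**Figure D2:**
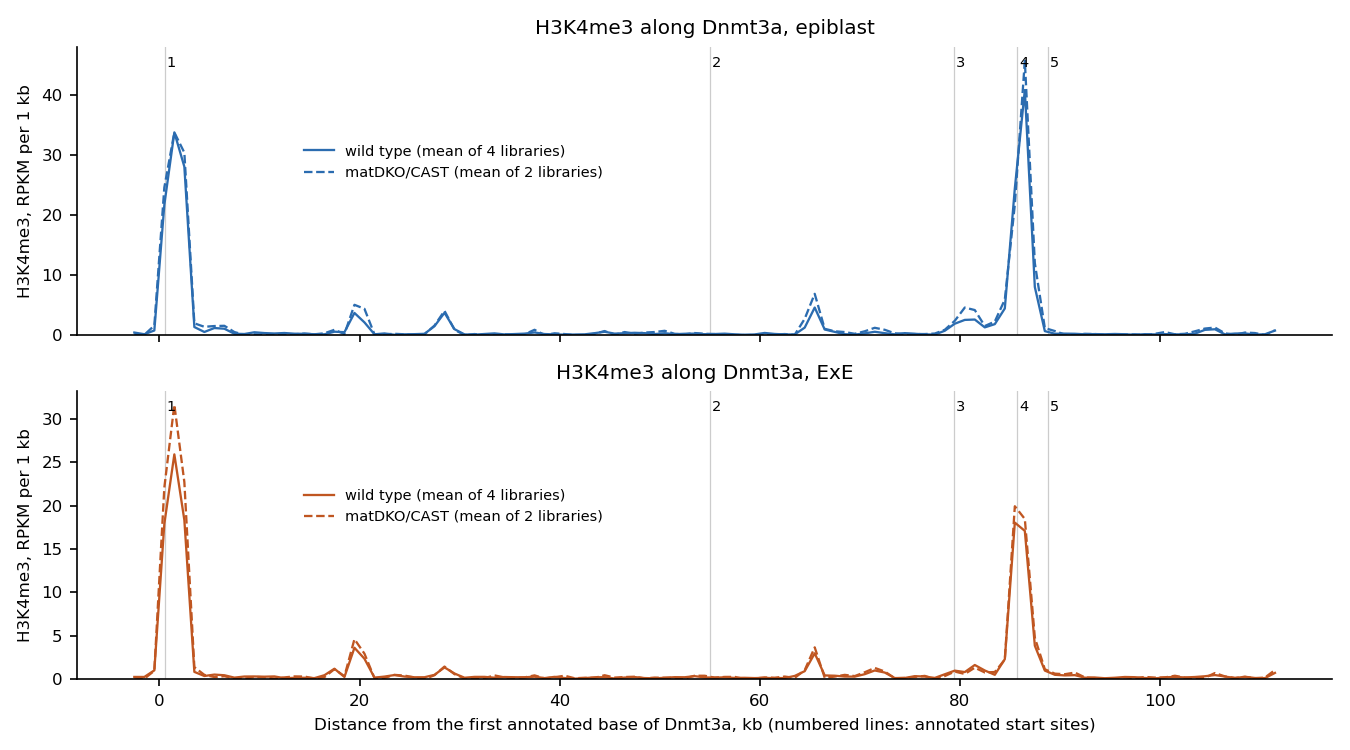
Mean H3K4me3 (RPKM per 1 kb window) along Dnmt3a against distance from its first annotated base (kb), epiblast above and ExE below, solid lines for the 4 wild-type libraries and dashed lines for the 2 matDKO/CAST libraries; numbered lines are the 5 annotated start sites. The 2 high peaks lie at sites 1 and 4, and the dashed line stands above the solid one at site 1 in ExE, where the difference did not pass the test (0.28, limma adjusted p = 1.00).

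Of the 21 start sites, 14 had a mean of at least 0.5 RPKM of H3K4me3 and were tested between tissues. The other 7 were site 1 of Dnmt1, site 2 of Dnmt3a, site 3 of Dnmt3l, sites 1, 2 and 5 of Tet1 and site 1 of Tet3. Site 3 of Tet1 passed this filter through epiblast alone, with wild-type means of 1.24 RPKM there and 0.363 RPKM in ExE, and its difference (-0.98) is given as a description and left out of the counts. Of the other 13 sites 4 were called in wild type, 1 higher in ExE and 3 lower, where 22.8% of all 17274 tested sites were called, 5.76% higher and 17.1% lower. The sites that fell in ExE were site 4 of Dnmt3a and its sites 3 (-0.77, adjusted p = 0.000697) and 5 (-0.68, adjusted p = 0.00211), all by limma. Sites 3 and 5 of Dnmt3a are minor starts, with wild-type epiblast means of 1.71 and 2.95 RPKM, and at site 5 of Dnmt3a the tissues overlapped. The same 4 sites were also called, with the same sign, between the matDKO/CAST tissues, where 14.8% of all sites were called. The median site moved by -0.08 between tissues as deposited and by 0.04 after each library was shifted to the same median, and with that scaling 8 of the 13 sites were called, 3 higher and 5 lower, while the split over all sites went from 995 higher and 2949 lower to 3393 and 3414. The sites that gained a call were Tet2 (0.21, adjusted p = 0.0205) and site 1 of Dnmt3l (0.54, adjusted p = 0.0234), both higher in ExE, and site 1 of Dnmt3a (-0.28, adjusted p = 0.0158) and site 3 of Tet3 (-0.28, adjusted p = 0.0106), both lower. The same 4 gained a call with edgeR on recovered reads.

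The site that rose was site 2 of Dnmt3l. Its H3K4me3 was 9.79 and 6.51 RPKM in B6/CAST ExE and 4.86 and 4.94 in CAST/B6 ExE. The epiblast libraries, in the same order, had 2.59, 1.59, 0.48 and 1.12 RPKM. The ExE libraries lay above all of these, and the difference was 1.92 (SE 0.185, limma adjusted p = 6.66e-23). The site also gained H3K27me3 in ExE, from 0.586 to 0.854 RPKM in epiblast to 1.1 to 1.59 RPKM in ExE (0.50, adjusted p = 0.00751), a call that was lost without CAST/B6 ExE replicate 1 (adjusted p = 0.0554).

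The main start sites of the other members carried high H3K4me3 in both tissues. The wild-type means in epiblast and ExE were 42.1 and 37.1 RPKM at Dnmt3b, 38.8 and 33.5 RPKM at site 4 of Tet1, 25.2 and 24.6 RPKM at site 2 of Dnmt1, 20.3 and 18.9 RPKM at Uhrf1 and 16.1 and 17.1 RPKM at Tet2. For each of these genes the libraries of the 2 tissues overlapped and limma gave no call as deposited, with differences from -0.19 to 0.09, although Tet2 was called higher in ExE after the shift. Tet3 had 2 marked starts, site 2 at 24.9 and 21.5 RPKM and site 3 at 16.7 and 12.7 RPKM. At site 3 the tissues did not overlap, but the difference missed the threshold (-0.40, adjusted p = 0.122).

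Of the tested member start sites, that of Tet2 had the highest mean H3K27me3 in wild-type epiblast, 3.08 RPKM, followed by site 1 of Tet3 at 1.88 RPKM. H3K27me3 around its start (chr3:133544368-133545139, minus strand) was 2.78 and 2.39 RPKM in B6/CAST epiblast and 3.17 and 3.98 in CAST/B6 epiblast. In the ExE libraries it was 0.342, 0.551, 0.524 and 0.595 RPKM in the same order. The lowest epiblast library lay above the highest ExE library, and the difference was -1.82 (SE 0.171, limma adjusted p = 6.76e-24). The same windows carried H3K4me3 at 13.5 to 19.5 RPKM in epiblast and 15 to 19.7 RPKM in ExE, so both marks were present at the Tet2 start in the epiblast pools. Between the matDKO/CAST tissues the H3K27me3 difference was -1.24 (adjusted p = 1.82e-05), where 19.6% of all sites were called.

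For H3K27me3 9 member start sites passed the filter. Site 3 of Dnmt3l and site 1 of Tet1 did so through ExE alone, with wild-type means of 0.449 and 0.470 RPKM in epiblast and 0.830 and 0.614 RPKM in ExE, and are left out of the count. Of the other 7 sites 3 were called, where 48.6% of all sites were called, 25.5% higher and 23.1% lower. After each library was shifted to the same median the split over all sites went from 2736 higher and 2483 lower to 1815 and 3604, and with edgeR on recovered reads it was 3020 and 3305. Besides Tet2 and site 2 of Dnmt3l, site 1 of Tet3 was called, at 1.58 to 2.16 RPKM in epiblast and 2.55 to 3.04 RPKM in ExE (0.46, adjusted p = 0.0253). This call was lost without any 1 of 7 of the 8 wild-type libraries, B6/CAST epiblast replicate 1 being the exception (adjusted p = 0.0613 to 0.0808), and with windows within 2000 bp (adjusted p = 0.0640). Site 1 of Dnmt1, Dnmt3a and Dnmt3l and site 2 of Tet3 were not called, with differences from -0.36 to 0.29. Site 2 of Tet3 (-0.36, adjusted p = 0.0595) was called lower in ExE after the shift (-0.51, adjusted p = 0.00379), with edgeR (-0.68, adjusted p = 0.00592), with a pseudocount of 1 RPKM (adjusted p = 0.0430) and with the replicate number as a block (adjusted p = 0.0470).

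**Figure D3:**
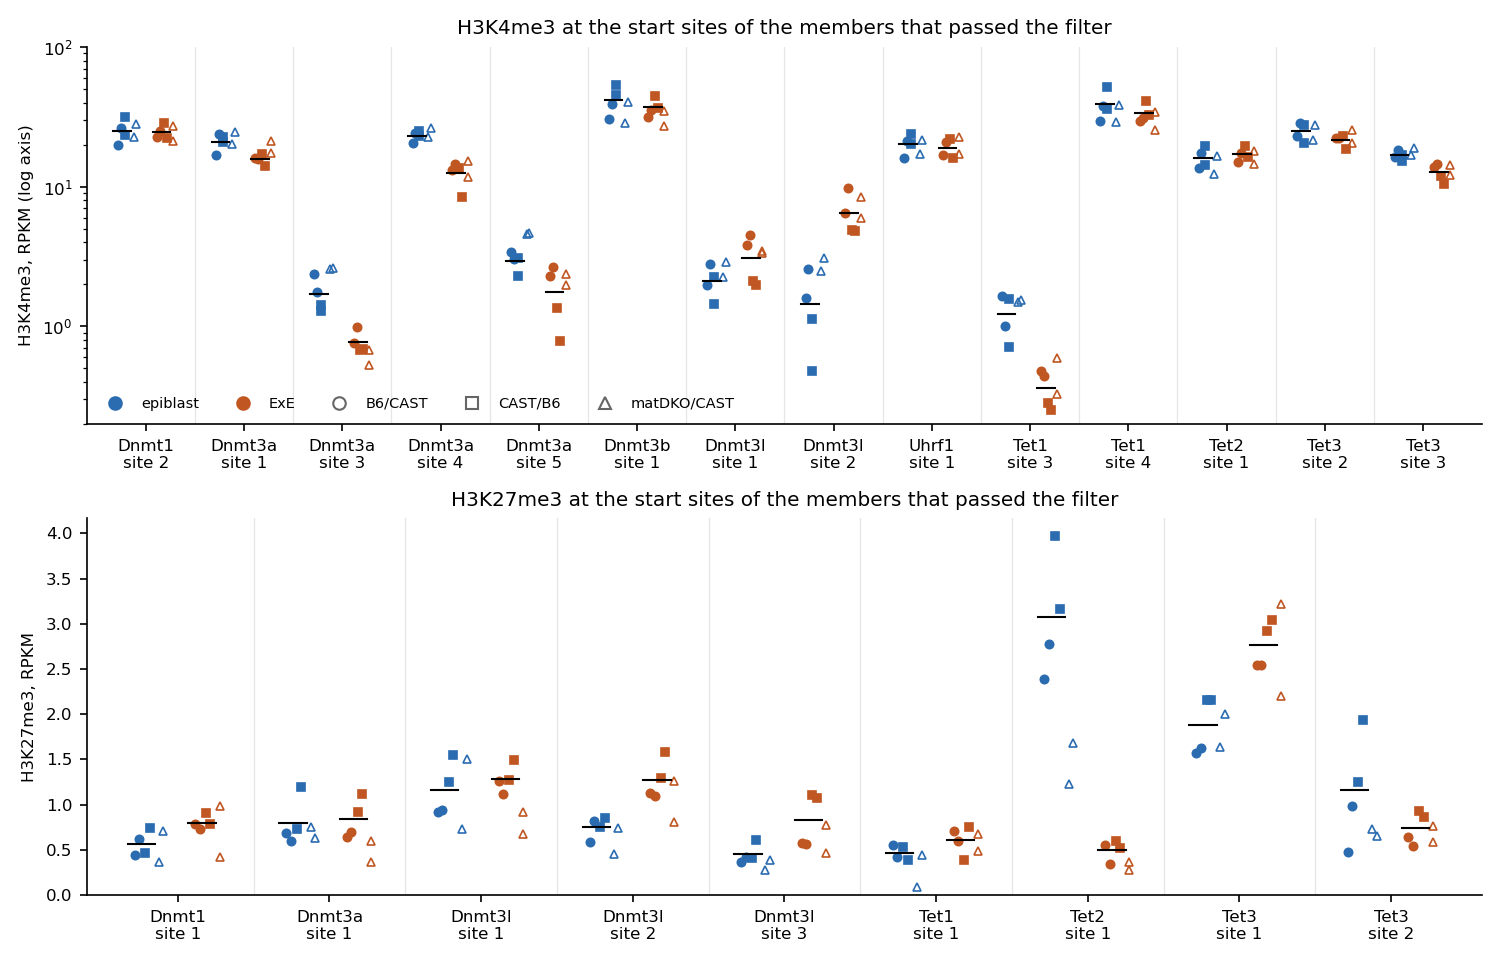
H3K4me3 (RPKM, log axis, above) and H3K27me3 (RPKM, below) around the tested start sites of the 8 genes, 1 point per library, blue for epiblast and orange for ExE; circles are B6/CAST, squares CAST/B6 and open triangles matDKO/CAST, and the black bars are wild-type means. Site 2 of Dnmt3l stands higher in ExE for H3K4me3, site 4 of Dnmt3a lower, and Tet2 carries H3K27me3 at 2.39 to 3.98 RPKM in wild-type epiblast.

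The Tet2 H3K27me3 domain was also the only peak named for a member that was called in both wild-type crosses. In the epiblast peak (chr3:133529500-133552000) the B6 copy was the stronger whichever parent gave it. The maternal share was 71.6% and 67.6% in B6/CAST and 33.5% and 37.1% in CAST/B6, with 192 maternal and 76 paternal reads in the first library of B6/CAST and 138 and 274 in that of CAST/B6. Maternal over paternal signal was 1.1 on the log2 scale in B6/CAST (adjusted p = 0.0115) and -0.88 in CAST/B6 (adjusted p = 1.3e-08, edgeR), a strain-specific pattern that 1.01% of all informative epiblast H3K27me3 peaks met. The call was lost with DESeq2 (adjusted p = 0.0724 in B6/CAST) and without either CAST/B6 library (adjusted p = 0.541 and 0.122). In matDKO/CAST the maternal share was 69.9% in replicate 1 and 55.8% in replicate 2, the latter from 43 reads in all. Over all autosomal H3K27me3 peaks replicate 2 had 150930 maternal and 119748 paternal reads, about the same share as at this peak, and replicate 1 had 605796 and 515092 (interaction at the Tet2 peak -0.42, adjusted p = 1.00).

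No member peak was called imprinted, that is biased to the same parent in both wild-type crosses. Of all informative peaks, this held in epiblast and ExE for 0.108% and 0.319% with H3K4me3, 0.325% and 1.35% with H3K27me3, and 0.0632% and 0.251% with H3K36me3. Strain-specific calls made up 0.841% and 3.96%, 1.01% and 4.32%, and 0.424% and 1.1% in the same order, and among the peaks named for a member the Tet2 domain in epiblast was the 1 such call. Of the peaks named for a neighbour, the ExE H3K27me3 domain that spans Dnmt3l (chr10:78025500-78073000, named for Aire) was called strain-specific too, with the CAST copy ahead. Its maternal share was 36.6% and 39.1% in B6/CAST (-0.79, adjusted p = 1.9e-05) and 55.1% and 59.3% in CAST/B6 (0.42, adjusted p = 0.00688, edgeR). In matDKO/CAST ExE it was 38.6% and 43.3%. Of the 60 peaks 46 had at least 20 reads in 1 allelic column of a wild-type library, and in 35 of these the pooled maternal share lay between 40% and 60% in both wild-type crosses. The H3K36me3 domain over Tet1, the member peak of that mark with the most allelic reads in ExE, had 289 maternal and 260 paternal reads and 260 and 219 in B6/CAST, and 249 and 290 and 205 and 241 in CAST/B6. The B6 reads were thus slightly ahead in all 4 libraries, without passing the test in either cross (adjusted p = 0.608 and 0.577). Over all autosomal H3K36me3 peaks the B6 reads were ahead in these 4 libraries too. In replicate 1 they were 1083625 to 1025557 in B6/CAST and 974628 to 930586 in CAST/B6. Peaks were called on the wild-type crosses, so a domain gained in matDKO/CAST alone has no row in these tables.

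H3K36me3 over gene bodies ordered the members by level. In wild-type epiblast Dnmt3b was highest, at 2.49 ± 0.425 RPKM (SD, n = 4), followed by Uhrf1 at 1.86 ± 0.300, Tet1 at 1.27 ± 0.152 and Dnmt1 at 1.24 ± 0.121. Tet3 at 0.782 ± 0.0831, Dnmt3a at 0.684 ± 0.0432, Tet2 at 0.537 ± 0.0287 and Dnmt3l at 0.482 ± 0.0992 came below. The libraries overlapped between Dnmt3b and Uhrf1, between Tet1 and Dnmt1, between Tet3 and Dnmt3a and between Tet2 and Dnmt3l, so the order within those pairs is not resolved. In ExE the order was Dnmt3b at 3.06 ± 0.628, Uhrf1 at 2.35 ± 0.212, Dnmt1 at 1.75 ± 0.129, Tet1 at 1.38 ± 0.148, Tet3 at 0.857 ± 0.0333, Tet2 at 0.769 ± 0.0879, Dnmt3l at 0.733 ± 0.0949 and Dnmt3a at 0.602 ± 0.0313. There the libraries overlapped between Dnmt3b and Uhrf1 and among Tet3, Tet2 and Dnmt3l, and Dnmt3a lay below all other members. No input was subtracted from these levels. Over the whole of Dnmt3a the wild-type inputs were 0.471 to 0.601 RPKM in epiblast and 0.494 to 0.548 RPKM in ExE, close to its H3K36me3. Its H3K36me3 peak in ExE, chr12:3893500-3910500, covers only the 3′ part of the gene. The mean over the gene thus includes many windows outside a peak.

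Between tissues the whole distribution of H3K36me3 shifted, with a median log2 difference of 0.32 over 10318 tested genes, 67.6% of them called higher in ExE and 4.06% lower. Dnmt3l reached the filter of 0.5 RPKM through ExE alone, and its difference (0.33) is given as a description and left out of the count. Against that background 2 of the other 7 members were called higher, Dnmt1 (0.37, adjusted p = 0.00154) and Tet2 (0.29, adjusted p = 0.00130), both by limma and both close to the shift itself. After each library was shifted to the same median, neither was called, and 3 other members were called lower in ExE: Dnmt3a by -0.42 (adjusted p = 0.000605), Tet1 by -0.23 (adjusted p = 0.0141) and Tet3 by -0.23 (adjusted p = 0.0119). The same 3 were called lower by edgeR on recovered reads. The split over all genes went from 6970 higher and 419 lower to 911 and 1582 with this scaling. Dnmt3a was the member whose body signal was lower in ExE as deposited too, at 0.649 to 0.746 RPKM in epiblast and 0.558 to 0.626 RPKM in ExE, without overlap between the tissues.

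**Figure D4:**
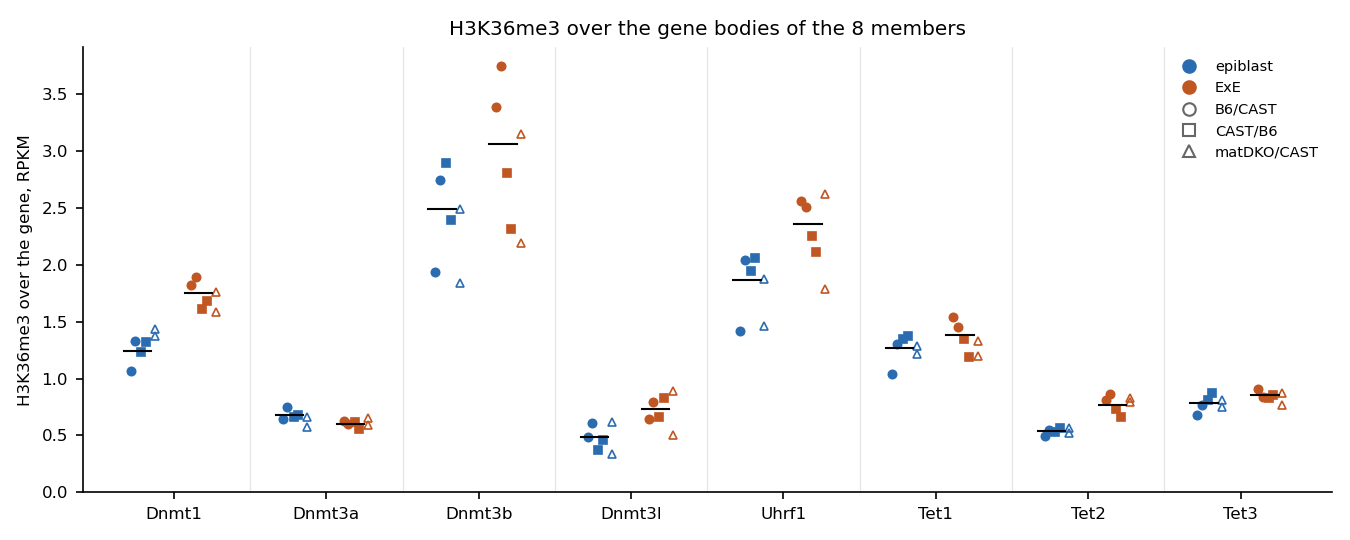
H3K36me3 over the gene bodies of the 8 genes (RPKM), 1 point per library, blue for epiblast and orange for ExE; circles are B6/CAST, squares CAST/B6 and open triangles matDKO/CAST, and the black bars are wild-type means. Dnmt3b and Uhrf1 stand highest in both tissues, and Dnmt3a is the member whose wild-type mean is lower in ExE than in epiblast.

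Genes that work with the members were read in the same way, from lists of maintenance and chromatin partners, methyl-CpG readers, removal and repair factors and enzymes of the methyl donor and cofactor supply. Of the partners 12 of 15 tested were called higher in ExE and 0 lower, of the readers 3 of 8 higher and 1 lower, of the removal factors 1 of 6 higher and of the metabolic enzymes 5 of 6 higher, against the 67.6% of all genes. The repair gene Smug1, at 0.438 RPKM in epiblast and 0.622 RPKM in ExE, reached the filter through ExE alone and is not counted. The largest called differences were 0.71 at Mbd2, a methyl-CpG binding protein, 0.59 at Mat2a, which makes S-adenosylmethionine, and 0.52 at Zfp445, a zinc finger protein that protects imprints. Kdm2b, which binds unmethylated CpG and recruits Polycomb complexes, fell by 0.29. After the shift to the same median, 0 of the 15 partners and 0 of the 6 metabolic enzymes were called higher, Mbd2 (0.39, adjusted p = 0.00125) and Kdm2b (-0.61, adjusted p = 0.000129) kept their calls, and Mat2a (0.28, adjusted p = 0.349) and Zfp445 (0.20, adjusted p = 0.159) lost theirs. The other calls after the shift were lower in ExE, at Mat2b (-0.31, adjusted p = 0.00382), Zbtb38 (-0.26, adjusted p = 0.0390) and the repair factor Xrcc1 (-0.22, adjusted p = 0.0187). No gene of these lists was called between matDKO/CAST and wild type in either tissue.

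Over the 12 H3K36me3 libraries the genes whose level ran most like each member were also listed, as a description over libraries that share depth and tissue. They were Nomo1 and Ubr4 for Dnmt1 (Pearson's r 0.99 for both), Zscan10 and Vrtn for Dnmt3a (0.91 and 0.80), Slc2a1 and Cks1b for Dnmt3b (0.95 and 0.94) and Shmt2 and Mrpl12 for Dnmt3l (0.93 and 0.92). For the remaining members they were Baz2a and Snrpd3 for Uhrf1, Tada1 and Ehmt1 for Tet1, Dlat and Slc25a15 for Tet2, and Tacc3 for Tet3, with r from 0.92 to 0.99.

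In total signal few features of the members were called between matDKO/CAST and wild type. For H3K36me3 none of the 8 bodies was called in either tissue, with differences from -0.17 to 0.13, where 0.213% of all genes were called in epiblast and 0.0194% in ExE. For H3K4me3 1 of 14 sites was called in epiblast, where 1.37% of all sites were, and 0 in ExE, where 0.370% were. This was site 2 of Dnmt3l, at 3.10 and 2.50 RPKM in matDKO/CAST, 2.59 and 1.59 in B6/CAST and 0.48 and 1.12 in CAST/B6 (0.88, SE 0.226, limma adjusted p = 0.0145). The matDKO/CAST and B6/CAST libraries overlapped, and against B6/CAST alone the difference was 0.37 (adjusted p = 1.00). The call was also lost with no filter on low values and without any 1 of 4 libraries, namely either of matDKO/CAST, B6/CAST replicate 2 and CAST/B6 replicate 2.

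For H3K27me3 1 of 9 sites was called in matDKO/CAST epiblast, where 20.5% of all sites were called and 18.6% were lower, and 0 in ExE, where 0.614% were called. Tet2 fell to 1.68 and 1.22 RPKM, below the 2.39 to 3.98 RPKM of the 4 wild-type libraries (-0.86, SE 0.210, adjusted p = 0.00129). The median of all sites differed by -0.19 in this comparison. The call was lost without matDKO/CAST replicate 2 (adjusted p = 0.188), against B6/CAST alone (adjusted p = 0.153) and with no filter on low values (adjusted p = 0.0744). The difference between tissues in the effect of matDKO/CAST was called for none of the 31 member features, the lowest adjusted p being 0.628 (limma), where 0.0174% of all sites were called for H3K4me3 and 0 for the other 2 marks.

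The deleted maternal copies of Dnmt3a and Dnmt3b were looked for in the inputs, in which a window inside a deletion has 1 copy in place of 2. In a limma fit over 2279703 windows of 1 kb, 0 of 109 tested windows of Dnmt3a and 0 of 38 of Dnmt3b were called, where 0.0540% of all windows were called lower and 0.0014% higher. The fit has little power for the loss of 1 of 2 copies in a single window, so the lack of calls does not bear on whether these windows were deleted. At an unadjusted p below 0.05, 125745 windows of the whole table passed. The lowest ratio in Dnmt3b was that of chr2:153676001-153677000, at 0.371 of wild type (log2 difference -1.0, adjusted p = 0.583), and edgeR on recovered reads called none of its windows either.

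The 3 neighbouring windows with the lowest input in Dnmt3b (chr2:153675001-153678000) lie 25.6 kb from the first base of the gene and hold exons 16 to 20 of the 24 exons of transcript Dnmt3b-201. Their input was 0.158, 0.207 and 0.239 RPKM as lowest, median and highest of 5 matDKO/CAST libraries, and 0.186, 0.349 and 0.556 RPKM over 10 wild-type libraries, so the pooled sets overlapped, and the input of the wild types dipped in these windows as well. Within ExE the 2 matDKO/CAST inputs, 0.207 and 0.239 RPKM, lay below the 4 of wild type at 0.346 to 0.556 RPKM, while within epiblast the ranges were 0.158 to 0.221 and 0.186 to 0.447 RPKM and overlapped. The 2 inputs whose strain label leaves out 129 had 0.160 and 0.207 RPKM, within the range of the other 3 matDKO/CAST inputs. The ratio of the means was 0.532, and outside this stretch the lowest of the 37 stretches of 3 windows stood at 0.813. In Dnmt3a no such dip stood apart: the lowest stretch (chr12:3861001-3864000) had a ratio of 0.757 with the next at 0.841, and it held no exon of the long transcript Dnmt3a-201.

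The ChIP libraries of the same crosses and tissues were read in the Dnmt3b stretch, which had been chosen by the lowest input ratio of matDKO/CAST to wild type. In the study, inputs and ChIP aliquots were taken from the same chromatin of the embryo pools. The test below is therefore not independent of the choice of the stretch. H3K36me3 was 0.798 and 0.713 RPKM in matDKO/CAST epiblast and 0.991 and 0.997 in matDKO/CAST ExE. The 8 wild-type libraries lay between 1.27 and 2.99 RPKM, with a median of 1.90, all above the 4 of matDKO/CAST. Averaged over the tissues the mean was 42.4% of wild type, and the difference was -0.87 on the log2(RPKM + 0.5) scale with an exact two-sided permutation p of 0.00444, the smallest the 225 arrangements within tissues can give (adjusted p = 0.0133 over 3 marks). With the stretch divided by the mean over the whole gene, the difference was -0.51 on the log2(ratio + 0.5) scale (adjusted p = 0.0133, same test). This scale differs from that of the -0.87. Relative to the rest of the gene in the same library the stretch stood at 0.270 to 0.433 in matDKO/CAST and 0.639 to 0.808 in wild type. H3K4me3 (-0.16, exact permutation p = 0.236) and H3K27me3 (-0.05, exact permutation p = 0.582) were near 0 here in both genotypes, at means of at most 0.173 and 0.0821 RPKM, and their differences did not pass.

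**Figure D5:**
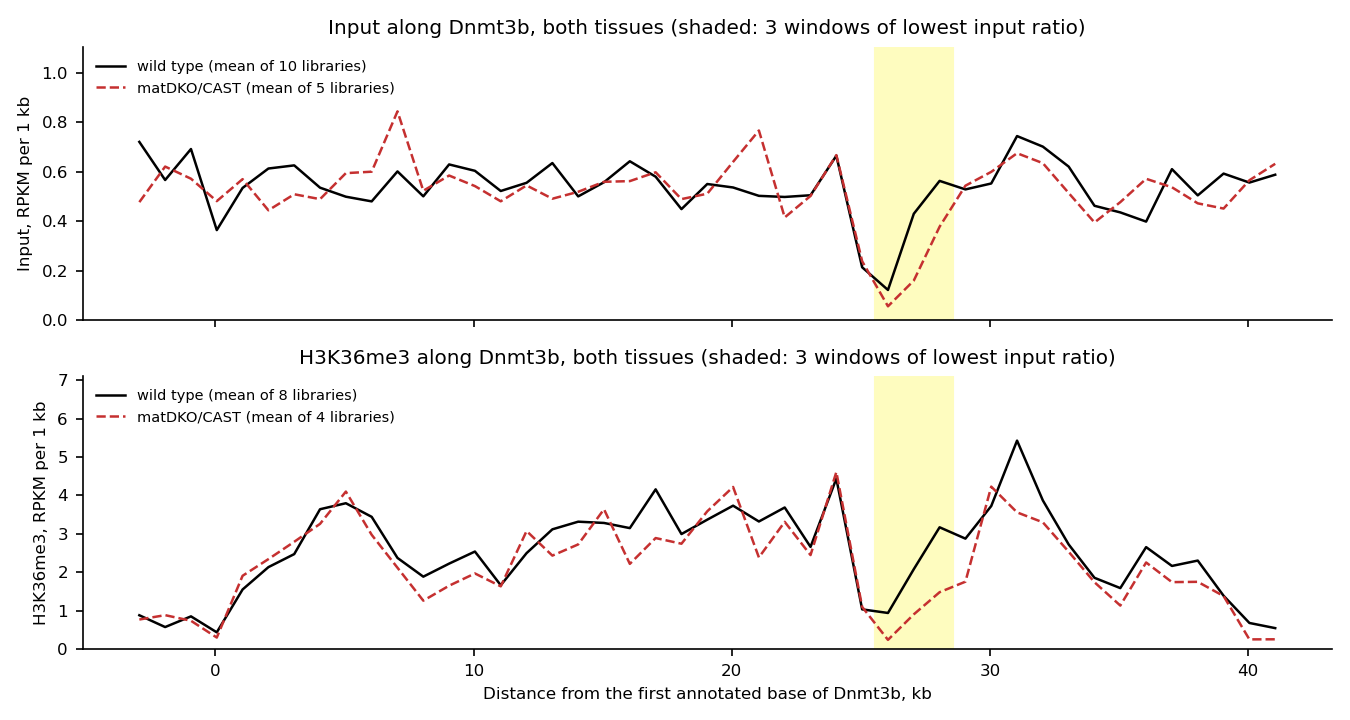
Mean input (above) and H3K36me3 (below), RPKM per 1 kb window, along Dnmt3b against distance from its first annotated base (kb), over both tissues; solid black lines are wild type (10 inputs, 8 ChIP libraries) and dashed red lines matDKO/CAST (5 inputs, 4 ChIP libraries), and shading marks the 3 windows of lowest input ratio. Both genotypes dip at the edge of the shaded stretch and the dashed lines fall below the solid ones within it, where H3K36me3 is 42.4% of wild type.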

How the data were processed

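Trim Galore 0.4.4 and Bowtie2 2.3.2 are named in the submitters' processing notes, and reads were mapped to GRCm38 with the strain differences masked. The authors split reads by parental SNPs, with an extra 129 step for matDKO/CAST, and called peaks with chromstaR on the wild-type crosses. The deposited allelic tables hold raw read counts per peak and allele. The deposited window table holds RPKM per 1 kb window and library, whose steps gave whole reads for 100% of values (within 0.05 of a whole number), and from which reads were recovered.

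Start sites were read as windows within 1000 bp, gene bodies as all windows overlapping the gene (GENCODE vM21). Levels were tested with limma 3.58.1 on log2(RPKM + 0.5), with a mean of at least 0.5 RPKM over the 12 libraries of a mark, and inputs on log2(RPKM + 0.1) from 0.1 RPKM with tissue as a term. Allelic counts were tested with edgeR 4.0.16 (TMM, glmQLFit) at peaks with at least 20 reads in 1 allele column of a wild-type library. The Benjamini-Hochberg adjustment ran over all features tested, with a threshold of 0.05. ChIP signal in the Dnmt3b stretch was compared by an exact permutation test within tissues. DESeq2 1.42.0, other scalings, pseudocounts and filters, and leaving out each library were alternatives. R 4.3.3 and Python 3.11.15 were used, and fits were tested on simulated data. Deviations of same-numbered libraries from their group means had correlations from -0.32 to 0.36. Between the 2 tissues of a cross they were 0.21 to 0.24 for H3K4me3, 0.06 to 0.25 for H3K36me3 and -0.07 to 0.12 for H3K27me3. The libraries were not paired in the main fits, and the study's sample list gives at least 1 ChIP library a pool number other than that of its title.

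All 8 members and every start site are named, with up to 3 pathway genes in each direction as deposited (Mat2b, Zbtb38 and Xrcc1 were added after their values were seen) and the 2 most alike genes per member, of which 1 is not reported here. Members, lists and tests were chosen with earlier results of these data known. Replicates are separate pools, and p-values measure the spread between them. Intervals from counts are not given because reads without molecular identifiers are not independent molecules. The 12 peak lists of single wild-type crosses and allele-split inputs were not used here.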

Additional observations from a re-analysis of the deposited data

Results flagged for a closer look

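Over 66 sets, the wild-type libraries of each tested member feature and tissue and the inputs of the low stretches of Dnmt3a and Dnmt3b, 1 value stood apart from the rest of its set by Dixon's criterion, while chance gives about 1 in 20 sets. At the second start site of Tet3, H3K4me3 was 18.5 RPKM in CAST/B6 ExE replicate 1, and the other 3 wild-type ExE libraries lay between 22.3 and 22.9 RPKM. The gap was 0.863 of the range of the set, and H3K4me3 at this site was called in no comparison of the report.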

How the results depend on the processing

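Scaling mattered most for the tissue comparison. With libraries shifted to the same median, or with edgeR on recovered reads, 9 members' sites were called for H3K4me3 (site 3 of Tet1 included), 3 of them higher in ExE, while windows within 2000 bp gave 2 higher. For H3K36me3 both settings gave 0 higher and 3 lower. Among the members called as deposited or in 1 of these settings, the signs turned for Tet2 (-0.027 after the shift), Tet3 (-0.23 and -0.32) and Tet1 (-0.23 and -0.33). The signs of members without any call were not compared. For H3K27me3 2 sites, Tet2 and site 2 of Tet3, were called lower with a pseudocount of 1 RPKM, after the shift, with edgeR and with the replicate number as a block. No other count of members moved by over 1.5 times under this replicate block, and with each library as a block for its allele columns no count of member peaks moved. The calls in matDKO/CAST epiblast went to 0 for H3K4me3 and 0 for H3K27me3 with no filter on low values and against B6/CAST alone. DESeq2 left 0 strain-specific member peaks for epiblast H3K27me3, and the joint fit of both crosses gave 1 for ExE H3K27me3 and 3 for ExE H3K4me3. The cause of these changes was not tested.

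Leaving out 1 library gave 1 to 2 sites higher in ExE for H3K4me3, and 2 to 5 sites called (site 3 of Dnmt3l included), 1 to 3 higher and 1 to 2 lower, for H3K27me3. In matDKO/CAST epiblast it gave 0 to 1 called for H3K4me3 and 0 to 2 for H3K27me3, and 0 to 1 for the strain-specific epiblast H3K27me3 peak and for the matDKO/CAST allelic difference at H3K4me3 in either tissue. Where 1 library was left in a group it was assumed to vary like the other groups. The lower H3K36me3 in the Dnmt3b stretch kept its direction and its call in all 3 other settings. The -0.51 after division by the mean over the whole gene is on the log2(ratio + 0.5) scale and cannot be set against the other differences. In all 12 fits without 1 library the direction was kept, with differences of -0.93 to -0.82. Of 181 counts and differences recomputed with other settings 161 kept their call or count, and 274 of 294 did without 1 library. Depth limits the allelic values: in epiblast matDKO/CAST replicate 2 the internal Dnmt3a peak held 67 maternal and 25 paternal reads.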
